A study of Arabidopsis thaliana with 12 samples.

Results

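The 10 genes described here are 9 enzymes of gibberellin metabolism and the gibberellin receptor gene *GID1A*, given by their gene identifiers as a fixed list of gibberellin metabolism genes and the receptor. They are *GA20ox1*, *GA20ox2*, *GA20ox3*, *GA3ox1*, *GA3ox2*, *GA2ox1*, *GA2ox2*, *GA2ox6*, *GA2ox8* and *GID1A*, and all 10 were among the 37336 genes of the files. RNA-Seq counts were available for 4 groups of Col-0 *Arabidopsis* seedlings with 3 libraries each, lettered A to C and described in the study as independent biological replicates. WT 29 °C seedlings spent 6 h at 29 °C after their growth at 23 °C, a time that comes from the study's methods and not from the sample labels. OE *APOLO-1* seedlings (labelled 35S:APOLO) came from 1 line that over-expresses the long noncoding RNA *APOLO* from the 35S promoter of a plant virus, and stayed at 23 °C. The *vim1-3* seedlings carried an insertion that lowers the transcript of *VIM1*, a gene for a methylcytosine-binding protein, and stayed at 23 °C. WT 23 °C seedlings, labelled Col-0, were described as wild type and were the group that the other 3 were set against. The *APOLO* counts of their replicate A were far above those of replicates B and C and are given below. All seedlings were 4 days old and grown in long days.

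Gibberellins are diterpenoid hormones that promote germination, hypocotyl elongation and flowering. GA 20-oxidases and GA 3-oxidases carry out the last steps that make the bioactive forms, and GA 2-oxidases inactivate these forms or their precursors. A bioactive gibberellin binds a GID1 receptor, and the pair then leads DELLA proteins, which hold back growth, to degradation. In *Arabidopsis*, *GA20ox1*, *GA20ox2*, *GA3ox1* and the GID1 genes are known for feedback, being raised when gibberellin signalling is low, whereas several GA2ox genes are raised by gibberellin itself.

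The promoters of *GA20ox1*, *GA3ox1* and *GA2ox6*, 1 gene of each enzyme class, are shown because the values below turn on these genes, a choice made after their values were seen. Each line gives the 250 bases before the annotated gene start, 5′ to 3′ on the gene's strand, from the RefSeq TAIR10.1 genome. They are chr4:12992586-12992835 (minus strand), chr1:5346343-5346592 (minus strand) and chr1:486550-486799 (plus strand). Capitals mark matches to the motifs named after the sequences.
GA20ox1: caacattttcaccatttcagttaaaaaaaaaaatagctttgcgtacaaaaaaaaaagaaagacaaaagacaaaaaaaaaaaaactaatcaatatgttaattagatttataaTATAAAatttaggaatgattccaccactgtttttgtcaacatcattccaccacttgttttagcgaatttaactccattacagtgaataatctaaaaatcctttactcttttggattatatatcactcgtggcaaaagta
GA3ox1: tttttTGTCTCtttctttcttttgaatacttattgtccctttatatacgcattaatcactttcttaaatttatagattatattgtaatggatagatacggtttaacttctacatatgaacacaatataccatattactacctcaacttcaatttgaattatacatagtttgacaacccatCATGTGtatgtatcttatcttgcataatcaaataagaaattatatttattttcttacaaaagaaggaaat
GA2ox6: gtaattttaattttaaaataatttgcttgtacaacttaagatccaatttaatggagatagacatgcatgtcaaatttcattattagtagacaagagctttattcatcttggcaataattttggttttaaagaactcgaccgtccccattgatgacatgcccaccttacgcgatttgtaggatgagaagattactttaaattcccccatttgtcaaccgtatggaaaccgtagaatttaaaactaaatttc
The G-box, CACGTG, is an element that PIF factors bind and was searched on both strands. So was the related PBE-box, CATGTG. The auxin response element, TGTCTC, and a box described at targets of *APOLO*, GAAGAA, were also searched on both strands. The TATA box, TATAAA, was searched on the gene's strand only. No match overlapped another in these 3 windows. In *GA20ox1* the TATA box began 139 bases before the start. In *GA3ox1* the PBE-box began 70 bases and the auxin response element 245 bases before it. The *GA2ox6* window held none of the 5 motifs. In the windows of all 27443 protein-coding genes, the TATA box was found in 32.9%, the *APOLO* target box in 30.5%, the PBE-box in 11.1%, the auxin response element in 10.9% and the G-box in 6.49%. These matches describe letters only, and nothing about a factor follows from a match or its absence.

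The libraries held 8824476 (WT 23 °C replicate C) to 22925019 (*vim1-3* replicate A) counted reads. A normalized count below is the count scaled by edgeR's TMM factors to the mean effective library size of 18009916, and 3 counts, taken as the smallest readable level, correspond to 2.28 to 6.49 normalized counts. A gene was called changed at a Benjamini-Hochberg adjusted p below 0.01 in edgeR's quasi-likelihood test, fitted once to all 12 libraries over 20664 genes. All adjusted p-values below come from that test unless DESeq2 is named. Over WT 23 °C, DESeq2 called 5273 of 26476 genes for WT 29 °C, 3415 for OE *APOLO-1* and 2895 for *vim1-3*, the background for its counts below. Counts at an unadjusted p below 0.05 are also given, with no share over all genes taken at that cut. It is passed by every gene at an adjusted p below 0.05, which were 7229, 4701 and 4127 of 20664 in the same order. Nothing particular to a list is read from such counts. *APOLO* (AT2G34655) had 4984 to 11720 counts in OE *APOLO-1*, and *VIM1* had 1 to 5 counts in *vim1-3*. The library labelled WT 23 °C replicate A, however, had 1197 *APOLO* counts, against 2 and 1 in replicates B and C of that group. Scaled, this was 1033 normalized counts, against 6331 to 10907 in OE *APOLO-1*. Whether this library held wild-type seedlings only was not tested. The WT 23 °C libraries also stood apart from the rest. On the first principal component (58.1% of the variance) they lay at -29.7, -149 and -103 (A, B, C), and the other 9 libraries lay between 0.332 and 55.1. The summed level of 8 root marker genes was 2282 to 2938 normalized counts in WT 29 °C, 2426 to 2892 in OE *APOLO-1* and 1865 to 2261 in *vim1-3*, against 1427, 284 and 819.8 in WT 23 °C. In WT 23 °C replicate B, 6 of the 8 were at or under 3 counts, and in replicate C 4 of 8, the stem cell and root cap genes *WOX5*, *PLT1*, *PLT2* and *SMB* among them in both. Replicate C was the shallowest library, where 3 counts correspond to 6.49 normalized counts. Its *PLT2* level, 4.33, was close to the 4.2 of WT 29 °C replicate A and the 4.32 of WT 23 °C replicate A. The sum of 8 jasmonate marker genes was 771 to 795 in WT 29 °C, 702 to 901 in OE *APOLO-1* and 741 to 819 in *vim1-3*, against 2180.1, 11933 and 9855 in WT 23 °C. That of 9 seed markers was 257 to 500.3 in WT 29 °C, 28.9 to 509 in OE *APOLO-1* and 57.5 to 126 in *vim1-3*. In WT 23 °C it was 161, 6.33 and 69.2. Of the 4 seed markers tested, 1 (*OLEO2*) was called higher in WT 29 °C than in WT 23 °C (7.88% of all genes). The sum of 6 shoot markers was 397994 to 429539.7 in WT 29 °C, 416570.4 to 560185 in OE *APOLO-1* and 351574 to 388610.3 in *vim1-3*. In WT 23 °C it was 502589, 424448 and 420679.8, above all *vim1-3* libraries and overlapping the other groups. Of the 5 shoot markers tested, 1 (*RBCS1A*) was called lower in WT 29 °C than in WT 23 °C (12.8% of all genes). Nearly all of the shoot sum came from the photosynthesis genes *RBCS1A*, *CAB2*, *CAB3* and *LHCB2.1*. The shoot meristem genes *STM* (28.1 to 67.8) and *CLV3* (0 to 6.33) hardly enter it. Each comparison with WT 23 °C uses these same 3 libraries, so the 3 comparisons are not independent of each other. In bulk RNA, fewer cells of a type and less RNA per cell cannot be told apart.

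The members spanned a wide range of levels. Per kilobase of exon, the group means of *GID1A* were 299 to 369.7 normalized counts and those of *GA2ox6* 74.9 to 272. *GA20ox2* followed with group means of 40.8 to 71.5, *GA2ox2* with 27.3 to 31.7 and *GA3ox1* with 14.8 to 39.8. The group means of *GA20ox1* were 5.44 to 30.0, of *GA2ox8* 7.22 to 16.5, of *GA3ox2* 6.99 to 12.2 and of *GA2ox1* 6.37 to 10.4 normalized counts per kilobase. These lower members rested on few reads. *GA20ox3* had 0 to 2 counts in every library, which is under the floor, and its changes cannot be read at this depth. The other 9 members passed the filter on low counts and were tested. Against WT 23 °C, 2 of these 9 were called in WT 29 °C (20.6% of all genes tested were called there), 1 of 9 in OE *APOLO-1* (10.3% of all genes) and 0 of 9 in *vim1-3* (6.63% of all genes). By direction, 1 of 9 was higher in WT 29 °C (7.88% of all genes) and 1 of 9 lower (12.8%), and in OE *APOLO-1* 0 were higher (2.60%) and 1 lower (7.68%). In *vim1-3*, where 2.19% of all genes were called higher and 4.45% lower, 1 of the 9 members (*GA2ox6*) had an unadjusted p below 0.05, and DESeq2 called 1, again *GA2ox6*. The members' median log2 fold change was 0.01 for WT 29 °C, then 0.10 for OE *APOLO-1* and 0.19 for *vim1-3*, beside medians over all genes of -0.01, -0.03 and -0.03. With counts of this size, the shares of members called were close to the background and nothing particular to the set is read from them.

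**Figure D1:**
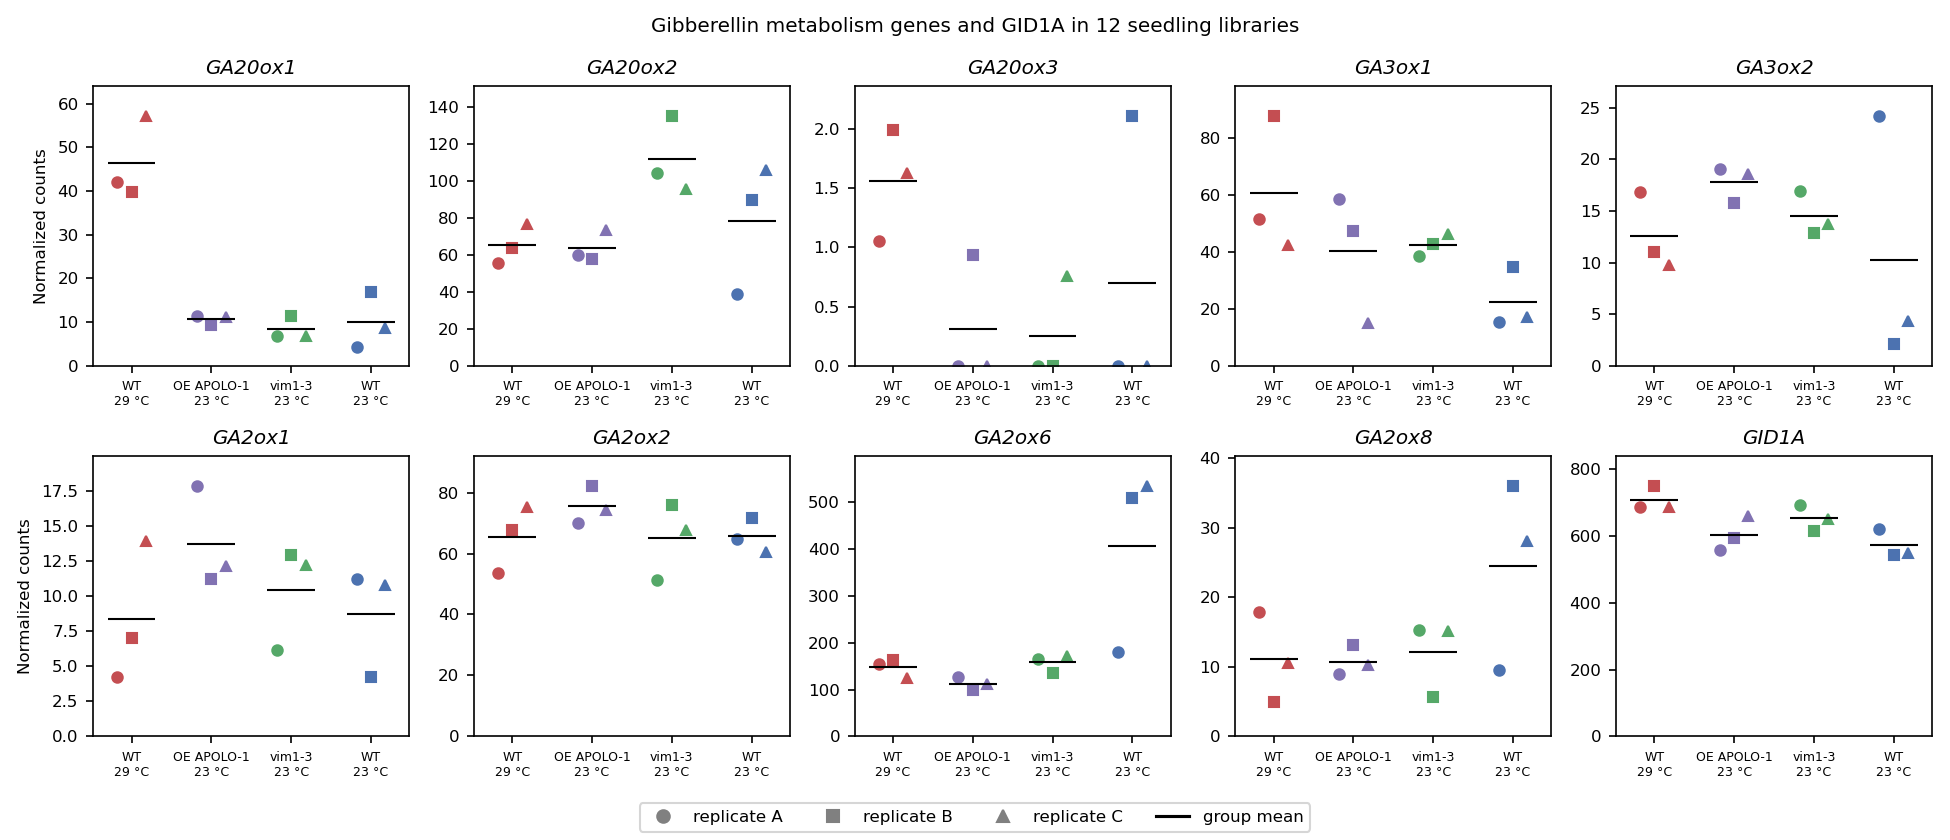
Normalized counts (y axes, each from 0) of the 10 members in the 12 libraries, by group on the x axes, with points shaped by replicate letter and a line at each group mean. *GA20ox1* lies at 39.9 to 57.2 in WT 29 °C and under 17 in all other libraries, and *GA2ox6* lies at 509 and 534 in WT 23 °C replicates B and C and under 180 in the other 10 libraries.

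The 3 GA 20-oxidase genes encode the enzymes that shorten the gibberellin skeleton step by step, often taken as the rate-limiting part of the pathway. *GA20ox1* (AT4G25420, chromosome 4, 12990851 to 12992585, minus strand) is the family member best known for stem and hypocotyl length. It had 42.0, 39.9 and 57.2 normalized counts in WT 29 °C, 11.4, 9.32 and 11.2 in OE *APOLO-1* and 6.90, 11.4 and 6.85 in *vim1-3*, against 4.32, 16.9 and 8.65 in WT 23 °C. Every WT 29 °C library was above every library kept at 23 °C, and the 3 groups at 23 °C overlapped. *GA20ox1* rose 4.66-fold at 29 °C relative to WT 23 °C (log2 fold change 2.22 ± 0.40 SE, adjusted p = 0.00133, n = 3 libraries each). It was called when any 1 of the 12 libraries was left out, at log2 fold changes of 1.74 (without WT 23 °C replicate A) to 2.99 (without replicate B), but the adjusted p was 0.0228 when only the 6 libraries compared were fitted. *GA20ox1* did not differ detectably from WT 23 °C in OE *APOLO-1* (log2 fold change 0.10 ± 0.46, adjusted p = 0.908) or in *vim1-3* (-0.30 ± 0.47, adjusted p = 0.697). The counts behind these values in the 3 groups at 23 °C were 4 to 16 per library.

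*GA20ox1* could also be compared without WT 23 °C libraries on either side, although the fit still shared their spread. It was 4.35-fold higher in WT 29 °C than in OE *APOLO-1* (log2 fold change 2.12 ± 0.39, adjusted p = 0.0031) and 5.72-fold higher in WT 29 °C than in *vim1-3* (2.52 ± 0.40, adjusted p = 0.000838). It was the only member of 9 called in either comparison, where 8.17% and 13.6% of all genes were called. The call against *vim1-3* held with each library left out. The call against OE *APOLO-1* was lost without WT 29 °C replicate A or C or any OE *APOLO-1* library, with log2 fold changes of 1.94 to 2.22 over all 12 such fits and adjusted p-values up to 0.0209. The 3 genes whose pattern over the 12 libraries was most like that of *GA20ox1* were AT1G07380, AT1G29030 and *CYP71B28*, with root mean square differences of 0.244, 0.251 and 0.265 in SD units of log2 CPM, beside a median of 1.357 over all genes. *CYP71B28*, a cytochrome P450 gene, had 728 to 796 normalized counts in WT 29 °C, against 417 to 546 in the other 9 libraries.

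*GA20ox2* (AT5G51810, chromosome 5, 21055179 to 21056881, minus strand) acts partly redundantly with *GA20ox1* and was the more abundant of the pair per kilobase in every group. It had 55.7, 63.8 and 76.8 normalized counts in WT 29 °C, 59.7, 57.8 and 73.5 in OE *APOLO-1* and 104, 135 and 95.8 in *vim1-3*, against 38.9, 89.6 and 106 in WT 23 °C. The WT 23 °C libraries overlapped all the other groups, and none of the comparisons with them was called, with adjusted p-values of 0.642 for WT 29 °C, 0.614 for OE *APOLO-1* and 0.215 for *vim1-3*. The 3 *vim1-3* libraries lay above all WT 29 °C and OE *APOLO-1* libraries. The log2 fold change was -0.79 ± 0.30 for OE *APOLO-1* over *vim1-3* (adjusted p = 0.152) and -0.75 ± 0.30 for WT 29 °C over *vim1-3* (adjusted p = 0.0803), so that neither passed the threshold. Both passed it when WT 23 °C replicate A was left out (adjusted p = 0.00848 and 0.00452) or when only the 6 libraries compared were fitted (adjusted p = 0.00451 and 0.00419). Over OE *APOLO-1* and *vim1-3*, 0 of 9 members were called (1.87% of all genes). An unadjusted p below 0.05 was found for 1 (*GA20ox2*), a cut passed by at least 1158 of all 20664 genes. DESeq2 called 0 members (1072 of all 26476 genes). *GA20ox3* (AT5G07200, chromosome 5, 2243553 to 2245339, minus strand), the third family member and known mainly from seeds, was at or below 2.11 normalized counts in all 12 libraries.

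GA 3-oxidases add the hydroxyl group that makes a gibberellin bioactive. *GA3ox1* (AT1G15550, chromosome 1, 5344388 to 5346342, minus strand) serves vegetative growth. It had 51.5, 87.7 and 42.5 normalized counts in WT 29 °C, 58.4, 47.5 and 14.9 in OE *APOLO-1* and 38.4, 42.9 and 46.4 in *vim1-3*, against 15.5, 34.8 and 17.3 in WT 23 °C. All WT 29 °C and all *vim1-3* libraries lay above all WT 23 °C libraries, while OE *APOLO-1* replicate C lay below them. The log2 fold change over WT 23 °C was 1.39 ± 0.47 for WT 29 °C (adjusted p = 0.0386), 0.79 ± 0.49 for OE *APOLO-1* (adjusted p = 0.271) and 0.89 ± 0.48 for *vim1-3* (adjusted p = 0.212). None of these passed the threshold, and with libraries left out the adjusted p in WT 29 °C ranged from 0.0118 to 0.15. The genes most like *GA3ox1* were AT5G16200, *HGL1* and AT5G20200, at root mean square differences of 0.367, 0.379 and 0.437 SD units.

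*GA3ox2* (AT1G80340, chromosome 1, 30200466 to 30202349, minus strand) is known from germinating seeds and roots. It had 16.8, 11.0 and 9.80 normalized counts in WT 29 °C, 19.1, 15.8 and 18.6 in OE *APOLO-1* and 16.9, 12.9 and 13.7 in *vim1-3*, against 24.2, 2.11 and 4.33 in WT 23 °C. WT 23 °C held both the highest and the lowest library of the 12, and replicates B and C had 2 counts each. With all libraries no comparison was called (adjusted p of 0.913 for WT 29 °C, 0.489 for OE *APOLO-1* and 0.723 for *vim1-3*). Without WT 23 °C replicate A it was called higher in all 3, by 2.06 ± 0.59 on the log2 scale for WT 29 °C (adjusted p = 0.0092), 2.58 ± 0.56 for OE *APOLO-1* (adjusted p = 0.00155) and 2.31 ± 0.58 for *vim1-3* (adjusted p = 0.00454). The WT 23 °C side then rests on libraries with 2 counts of *GA3ox2*, and they were the ones with the lowest root marker sums (284 and 819.8). Of the 7 root markers tested, 0 were called in any of the 3 comparisons with all libraries. Of these 7, 4 for WT 29 °C, 6 for OE *APOLO-1* and 7 for *vim1-3* had an unadjusted p below 0.05. At least 7229, 4701 and 4127 of all 20664 genes passed that cut. DESeq2 called 2 in each, all higher, where 2172, 1235 and 1140 of all 26476 genes were called higher. The part of root content in the *GA3ox2* values was not tested.

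**Figure D2:**
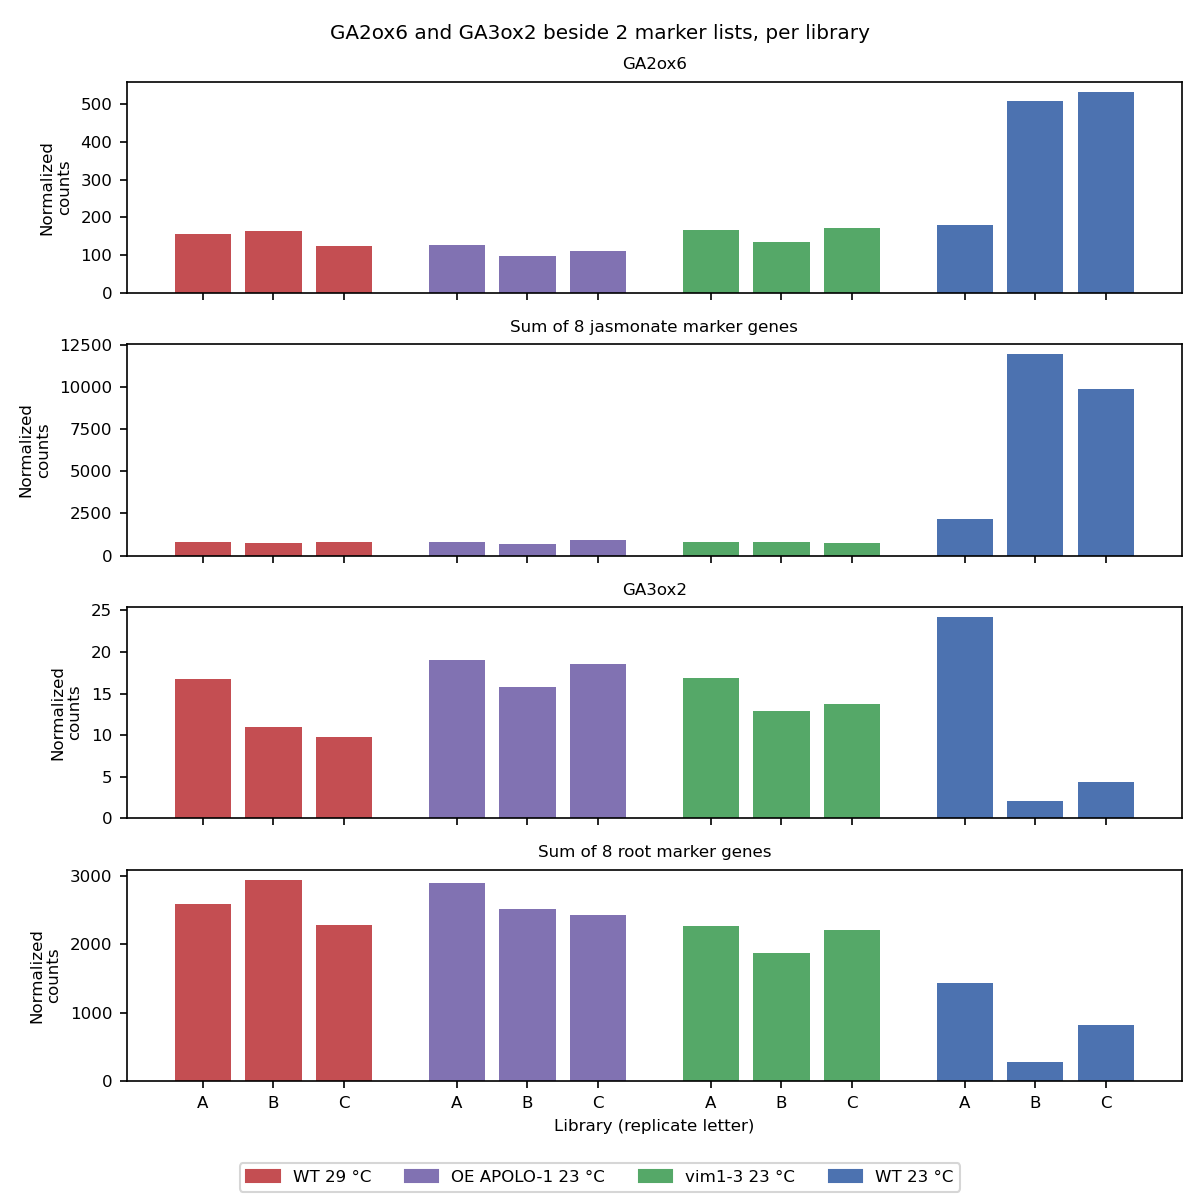
Normalized counts (y axes, linear from 0) of *GA2ox6*, the sum of 8 jasmonate marker genes, *GA3ox2* and the sum of 8 root marker genes in each of the 12 libraries (x axis, replicate letters), coloured by group. WT 23 °C replicates B and C have the highest *GA2ox6* (509 and 534) and jasmonate sums (11933 and 9855) and the lowest *GA3ox2* (2.11 and 4.33) and root sums (284 and 819.8).

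Among the 4 GA 2-oxidases, *GA2ox1*, *GA2ox2* and *GA2ox6* inactivate bioactive gibberellins and their immediate precursors, and *GA2ox8* acts on earlier precursors with the longer carbon skeleton. *GA2ox6* (AT1G02400, chromosome 1, 486800 to 489651, plus strand) was the most abundant of them per kilobase in every group. It had 155, 163 and 125 normalized counts in WT 29 °C, 127, 98.8 and 111 in OE *APOLO-1* and 166, 136 and 172 in *vim1-3*, against 179.6, 509 and 534 in WT 23 °C. All 9 libraries of the first 3 groups lay below all WT 23 °C libraries, but WT 23 °C replicate A was close to them. *GA2ox6* fell in OE *APOLO-1* to 0.278 times the WT 23 °C level (log2 fold change -1.85 ± 0.34, adjusted p = 0.00366) and in WT 29 °C to 0.367 times (-1.45 ± 0.33, adjusted p = 0.00653). In *vim1-3* the log2 fold change was -1.34 ± 0.33, with an adjusted p of 0.0186 that missed the threshold, while DESeq2 gave an adjusted p of 0.000575. These 3 values share the same WT 23 °C libraries. Among the other 3 groups, *GA2ox6* was not called in any comparison (adjusted p of 0.452 to 0.849), although the OE *APOLO-1* libraries all lay below the *vim1-3* libraries (log2 fold change -0.51 ± 0.34).

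The *GA2ox6* calls depended on single libraries. Without WT 23 °C replicate A, the group's lowest library, *GA2ox6* was called in all 3 comparisons, with log2 fold changes of -1.82 for WT 29 °C (adjusted p = 2.25e-08), -2.22 for OE *APOLO-1* (adjusted p = 3.51e-09) and -1.70 for *vim1-3* (adjusted p = 9.03e-08). Leaving out any of the other 11 libraries ended the WT 29 °C call, at adjusted p-values up to 0.0299. The OE *APOLO-1* call was lost without WT 23 °C replicate B or C or any OE *APOLO-1* library, at adjusted p-values up to 0.0215. With only the 6 libraries compared, the adjusted p was 0.0551 in WT 29 °C and 0.0563 in OE *APOLO-1*. The direction was the same in all these fits. The WT 23 °C libraries with high *GA2ox6* were the ones with the highest jasmonate marker sums, 11933 and 9855, against 2180.1 in replicate A. Of the 8 jasmonate markers, 5 were called lower than in WT 23 °C in each of the 3 comparisons, where 12.8% (WT 29 °C), 7.68% (OE *APOLO-1*) and 4.45% (*vim1-3*) of all genes were called lower. In replicate B the sum was led by *NATA1* (4114), *LOX2* (3695) and *JAZ1* (2551). *VSP1*, on the same list, was not highest in WT 23 °C. It had 65.1, 90.7 and 55.6 normalized counts in WT 29 °C, against 31.9, 30.6 and 49.8 in WT 23 °C. Its values were 62.2, 41.9 and 91.2 in OE *APOLO-1* and 17.6, 22.9 and 25.9 in *vim1-3*. The part of jasmonate signalling or of any difference in the state of these seedlings was not tested.

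The other GA 2-oxidases gave no call with all libraries. *GA2ox8* (AT4G21200, chromosome 4, 11302682 to 11306770, plus strand) had 17.9, 4.98 and 10.6 normalized counts in WT 29 °C, 8.89, 13.1 and 10.2 in OE *APOLO-1* and 15.3, 5.72 and 15.2 in *vim1-3*, against 9.50, 35.9 and 28.1 in WT 23 °C. As for *GA2ox6*, WT 23 °C replicates B and C were the highest of the 12 libraries. Replicate A lay within the other groups. The log2 fold change was -1.09 ± 0.55 for WT 29 °C (adjusted p = 0.141), -1.13 ± 0.55 for OE *APOLO-1* (adjusted p = 0.165) and -0.89 ± 0.53 for *vim1-3* (adjusted p = 0.256). Without WT 23 °C replicate A the WT 29 °C value became -1.55 and passed the threshold narrowly (adjusted p = 0.00988), and the OE *APOLO-1* value became -1.58 and did not (adjusted p = 0.011).

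*GA2ox2* (AT1G30040, chromosome 1, 10537457 to 10540044, plus strand), a GA 2-oxidase of seeds and seedlings, was the steadiest member among the oxidases. It had 53.6, 67.8 and 75.2 normalized counts in WT 29 °C, 69.9, 82.0 and 74.4 in OE *APOLO-1* and 51.4, 75.8 and 67.7 in *vim1-3*, against 64.8, 71.7 and 60.6 in WT 23 °C. All groups overlapped WT 23 °C, and its log2 fold changes over WT 23 °C were -0.01 ± 0.19, 0.19 ± 0.19 and -0.04 ± 0.19 in that order of groups. *GA2ox1* (AT1G78440, chromosome 1, 29511561 to 29513100, minus strand) had 4.20 to 13.9 normalized counts in WT 29 °C, 11.2 to 17.8 in OE *APOLO-1* and 6.14 to 12.9 in *vim1-3*, against 4.22 to 11.2 in WT 23 °C. Its log2 fold changes over WT 23 °C were 0.01 ± 0.51 for WT 29 °C, 0.65 ± 0.52 for OE *APOLO-1* and 0.24 ± 0.53 for *vim1-3*. None of these passed the threshold (adjusted p = 0.994, 0.403 and 0.786).

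*GID1A* (AT3G05120, chromosome 3, 1430363 to 1432844, plus strand) encodes 1 of the 3 soluble gibberellin receptors of *Arabidopsis* and was the most abundant member. It had 687, 749 and 686 normalized counts in WT 29 °C, 558, 596 and 661 in OE *APOLO-1* and 693, 615 and 653 in *vim1-3*, against 623, 545 and 549 in WT 23 °C. The WT 29 °C libraries lay above all WT 23 °C and all OE *APOLO-1* libraries. The difference between WT 29 °C and WT 23 °C was small, 1.23-fold (log2 fold change 0.30 ± 0.09, adjusted p = 0.0214), and missed the threshold. It passed it without WT 23 °C replicate A (0.37, adjusted p = 0.00427) and with upper-quartile scaling (0.40, adjusted p = 0.0092), which also put the median of all genes at 0.09, against -0.01. *GID1A* was not called in OE *APOLO-1* (0.08 ± 0.09, adjusted p = 0.587) or in *vim1-3* (0.19 ± 0.09, adjusted p = 0.155). The genes most like *GID1A* over the libraries were *IAA13*, AT3G53403 and AT5G05320, at root mean square differences of 0.316, 0.34 and 0.363 SD units.

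**Figure D3:**
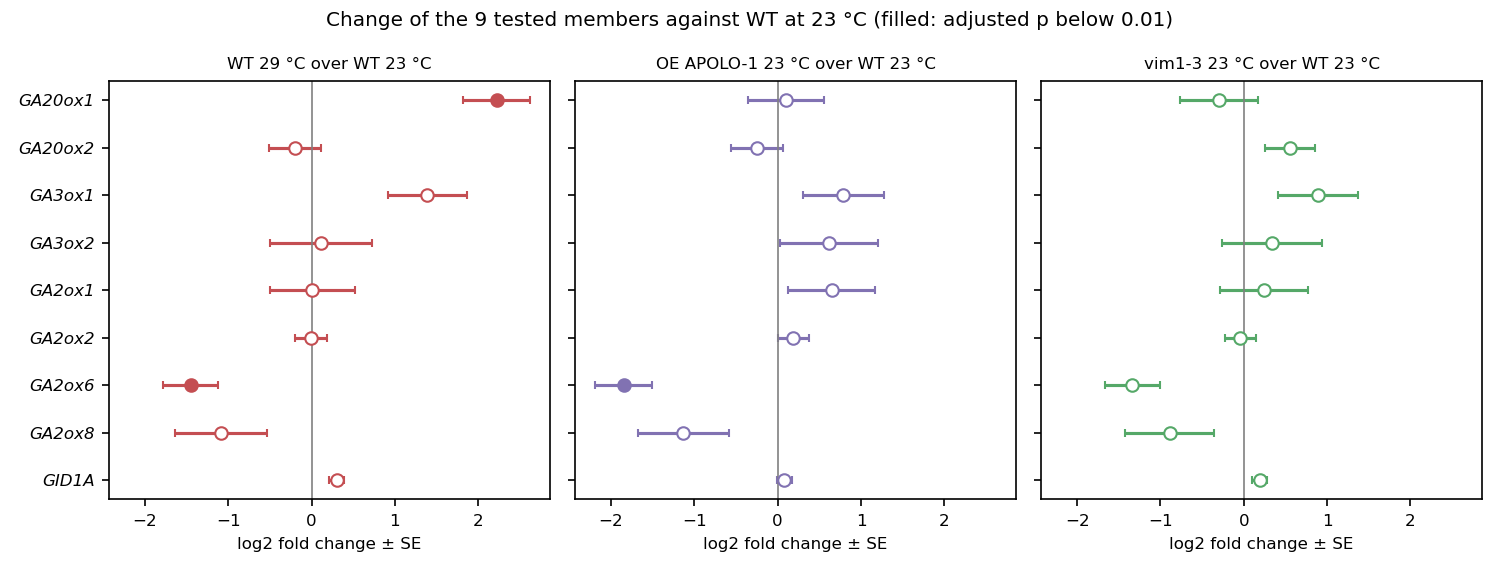
Log2 fold changes with standard errors (x axes) of the 9 tested members (y axis) in 3 panels, for WT 29 °C, then OE *APOLO-1*, then *vim1-3*, each over WT 23 °C, with filled points at an adjusted p below 0.01. The filled points are *GA20ox1* (2.22) and *GA2ox6* (-1.45) in WT 29 °C and *GA2ox6* (-1.85) in OE *APOLO-1*.

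**Figure D4:**
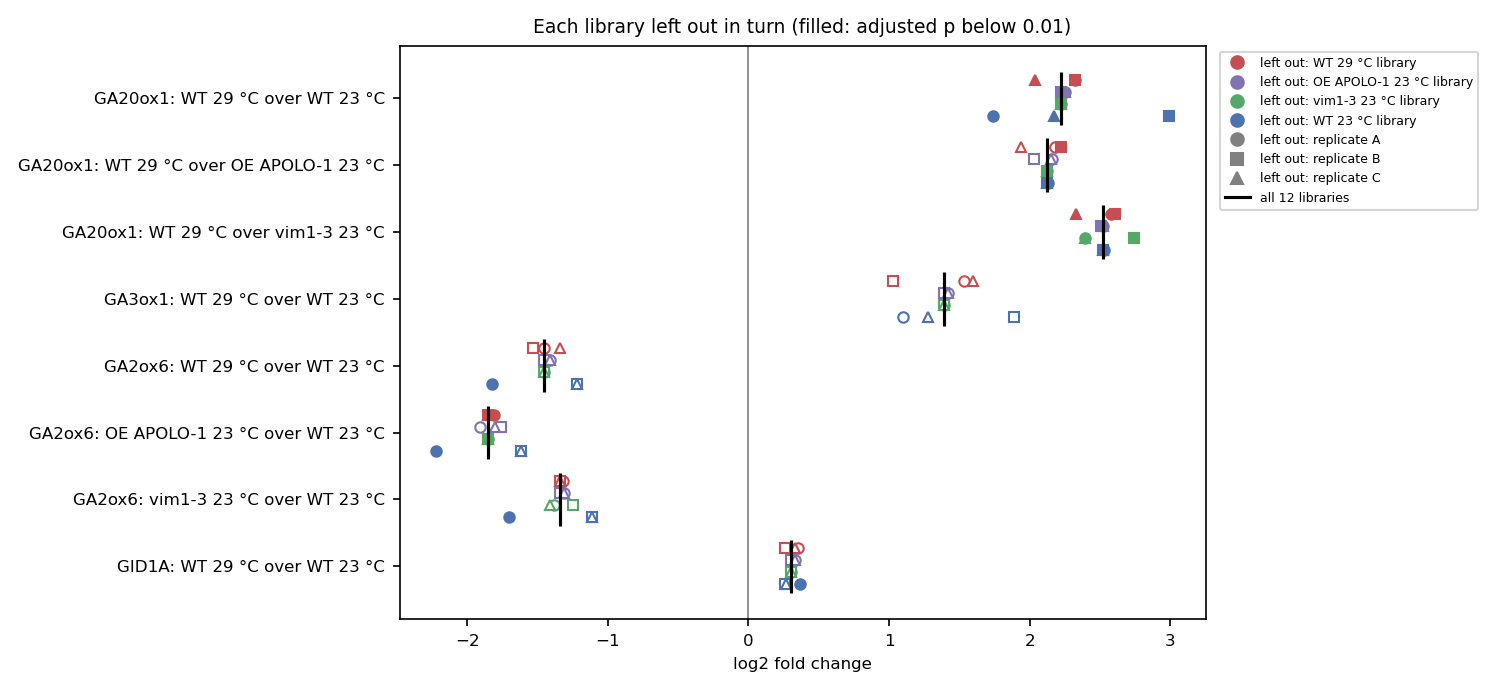
Log2 fold changes (x axis) of *GA20ox1*, *GA3ox1*, *GA2ox6* and *GID1A* in the comparisons on the y axis when any 1 of the 12 libraries is left out, coloured by the group and shaped by the letter of that library, filled at an adjusted p below 0.01, with a black line at the value of all libraries. *GA20ox1* over WT 23 °C stays between 1.74 and 2.99 and filled throughout, and *GA2ox6* in WT 29 °C is filled only without WT 23 °C replicate A.

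Summed by role per kilobase, the GA 20-oxidases had 63.5 to 87.3 normalized counts in WT 29 °C, 43.7 to 54.4 in OE *APOLO-1* and 66.3 to 93.6 in *vim1-3*, against 27.7 to 73.6 in WT 23 °C. *GA20ox2* made up most of this sum in every group. The GA 3-oxidases had 34.6 to 65.1 in WT 29 °C, 22.5 to 51.5 in OE *APOLO-1* and 36.8 to 39.9 in *vim1-3*, against 14.3 to 26.8 in WT 23 °C. The GA 2-oxidases had 133 to 146 in WT 29 °C, 118 to 134 in OE *APOLO-1* and 136 to 163 in *vim1-3*, against 162 to 409.5 in WT 23 °C, a sum led by *GA2ox6*. These sums are a description, with no test.

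Beyond the members, 52 further genes of gibberellin biosynthesis, inactivation, signalling and response were listed, of which 35 were tested. In WT 29 °C 9 of the 35 were called higher and 2 lower than in WT 23 °C (31.4%, beside 20.6% of all genes), in OE *APOLO-1* 1 higher and 1 lower (5.71%, beside 10.3%) and in *vim1-3* 1 higher and 1 lower (5.71%, beside 6.63%). Their median log2 fold change was 0.37, -0.01 and -0.06 in that order, beside -0.01, -0.03 and -0.03 over all genes. Set against OE *APOLO-1*, WT 29 °C had 7 of the 35 higher and 0 lower (8.17% of all genes were called), and set against *vim1-3* 9 higher and 2 lower (31.4%, beside 13.6%). Upstream of the members, 0 of 5 genes for the early steps from geranylgeranyl diphosphate were called in the 3 comparisons with WT 23 °C. Of these 5, 2 for WT 29 °C, 3 for OE *APOLO-1* and 2 for *vim1-3* had an unadjusted p below 0.05, and DESeq2 called 1, in OE *APOLO-1*. *KAO2*, an oxidase gene of these steps, had 401, 333 and 409 normalized counts in WT 29 °C, against 527, 527 and 524 in *vim1-3*. It was called lower in WT 29 °C than in *vim1-3* (-0.46 ± 0.10, adjusted p = 0.00414), a call that held in 7 of the 12 fits with a library left out. WT 29 °C also lay below WT 23 °C (-0.33 ± 0.10, adjusted p = 0.0188) and OE *APOLO-1* (-0.37 ± 0.10, adjusted p = 0.0209). Neither passed the threshold, while DESeq2 called *KAO2* lower than in OE *APOLO-1*. Of 7 other oxidase genes 1 was tested, *GA2OX4*, with log2 fold changes of 0.25 for WT 29 °C, -1.15 for OE *APOLO-1* and -0.92 for *vim1-3* over WT 23 °C, none past the threshold. Of 4 listed genes for other routes of inactivation 2 were tested and 0 called over WT 23 °C, and DESeq2 also called 0. An unadjusted p below 0.05 was found for 0 of them in WT 29 °C, for 1 in OE *APOLO-1* and for 2 in *vim1-3*.

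Of the 12 perception and signalling genes tested, 4 were called higher (7.88% of all genes) and 1 lower (12.8%) in WT 29 °C than in WT 23 °C. DESeq2 called 7 of the 12, 5 of them higher (of all 26476 genes, 5273 called and 2172 higher). The 4 were the DELLA genes *GAI*, *RGA1*, *RGL2* and *RGL3*, whose proteins restrain growth. The remaining DELLA gene, *RGL1*, had 79.8, 83.7 and 71.9 normalized counts in WT 29 °C, against 46.6, 167 and 108 in WT 23 °C, and its log2 fold change of -0.44 ± 0.33 was not called (adjusted p = 0.333). *GAI* had 1205, 1245 and 1114 normalized counts in WT 29 °C, against 734, 835 and 673 in WT 23 °C (log2 fold change 0.67 ± 0.10, adjusted p = 0.000384). *RGL3* had 155, 159 and 143 in WT 29 °C, against 83.8, 92.8 and 95.2 in WT 23 °C (0.76 ± 0.14, adjusted p = 0.00116), and both held with each library left out. *RGL2* rose by 1.21 ± 0.29 and *RGA1* by 0.35 ± 0.08 on the log2 scale (adjusted p = 0.00713 and 0.00516), and these calls held in 3 and 7 of the 12 fits with a library left out. In *vim1-3*, by contrast, *GAI* fell to 562, 538 and 516 normalized counts, against the same WT 23 °C libraries (-0.48 ± 0.10, adjusted p = 0.00854), a call that held in 2 of the 12 such fits. Set against *vim1-3*, WT 29 °C had higher *GAI* by 1.14 ± 0.10, *RGL3* by 1.17 ± 0.14 and *RGL2* by 1.41 ± 0.29 (adjusted p = 1.72e-05, 0.000106 and 0.00372).

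The receptor gene *GID1B* had its highest group mean in WT 23 °C. It had 179.6, 194 and 193 normalized counts in WT 29 °C, 163, 209.7 and 154 in OE *APOLO-1* and 229, 266 and 222 in *vim1-3*, against 259.9, 459 and 424 in WT 23 °C. Relative to WT 23 °C it fell by 1.00 ± 0.19 in WT 29 °C (adjusted p = 0.00176) and by 1.11 ± 0.19 in OE *APOLO-1* (adjusted p = 0.0022) on the log2 scale, with -0.67 ± 0.19 in *vim1-3* (adjusted p = 0.0292). WT 29 °C was not called against the lines kept at 23 °C. Its log2 fold change was 0.10 ± 0.19 over OE *APOLO-1* (adjusted p = 0.766) and -0.33 ± 0.19 over *vim1-3* (adjusted p = 0.224). As with *GA2ox6*, WT 23 °C replicates B and C were the highest libraries, and the part of their high jasmonate and low root marker sums was not tested. The calls were lost without WT 29 °C replicate A (adjusted p = 0.0106) and, in OE *APOLO-1*, without its replicates A or C (adjusted p up to 0.015). The third receptor gene, *GID1C*, had 503, 511 and 516 normalized counts in WT 29 °C, against 423, 395 and 437 in WT 23 °C (0.29 ± 0.08, adjusted p = 0.012). Like *GID1A*, at 0.30, it missed the threshold.

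Of the 7 tested genes of the GASA family, whose small cysteine-rich proteins are named for their response to gibberellin, 2 were called higher (7.88% of all genes) and 1 lower (12.8%) in WT 29 °C than in WT 23 °C. DESeq2 called 5, 4 of them higher (of all 26476 genes, 5273 called and 2172 higher). AT2G14900 had 402, 376 and 369 normalized counts in WT 29 °C, against 216, 189 and 149 in WT 23 °C (log2 fold change 1.03 ± 0.12, adjusted p = 0.000105). *GASA1* had 27015, 25721 and 23846 in WT 29 °C, 14531, 15803 and 18509 in OE *APOLO-1* and 16898, 13646 and 15625 in *vim1-3*, against 15526, 4433 and 5949 in WT 23 °C. Its call at 29 °C (1.56 ± 0.38, adjusted p = 0.00974) held only without WT 23 °C replicate A among the 12 fits with a library left out. AT1G22690 fell by 0.59 ± 0.15 at 29 °C (adjusted p = 0.0096), a call that held in 2 of those 12 fits. In OE *APOLO-1* and *vim1-3* 0 of the 7 were called over WT 23 °C, although 4 and 3 had an unadjusted p below 0.05. DESeq2 called *GASA5*, which is not among the 7 and had 0 counts in WT 23 °C, higher in both. Of the 7 it called only *GASA6*, lower in *vim1-3*. Compared without WT 23 °C libraries on either side, 3 of the 7 were called higher in WT 29 °C than in OE *APOLO-1* (8.17% of all genes called either way), and 3 higher and 1 lower than in *vim1-3* (13.6%). *GASA4* had 5444, 5015 and 5175 normalized counts in WT 29 °C, against 3219, 3194 and 2793 in OE *APOLO-1* (0.76 ± 0.12, adjusted p = 0.00119) and 3477, 3204 and 3251 in *vim1-3* (0.65 ± 0.12, adjusted p = 0.00201). *GASA6* had 5424, 4394 and 5567 in WT 29 °C, against 1951, 2362 and 2836 in OE *APOLO-1* (1.11 ± 0.22, adjusted p = 0.00598) and 1375, 2071 and 1547 in *vim1-3* (1.63 ± 0.22, adjusted p = 0.000427). The *GASA4* call over OE *APOLO-1* and the *GASA6* call over *vim1-3* held with each library left out. The other call of *GASA4* held in 10 and that of *GASA6* in 6 of the 12 such fits.

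Of 8 tested regulators of gibberellin metabolism, 3 were called higher in WT 29 °C than in WT 23 °C (7.88% of all genes) and 0 lower. DESeq2 called 5, all higher (2172 of all 26476 genes were called higher). *PIF4*, the bHLH factor central to the growth response to warmth, had 2148, 2248 and 2209 normalized counts in WT 29 °C, 1339, 1176 and 1160.4 in OE *APOLO-1* and 1145, 1163 and 1124 in *vim1-3*, against 1071, 1526 and 1356 in WT 23 °C (WT 29 °C over WT 23 °C: 0.74 ± 0.11, adjusted p = 0.000406). As for *GA20ox1*, the WT 29 °C libraries lay above all 9 others. *PIL5* (PIF1), a repressor of GA3ox genes in dark-imbibed seeds, rose by 0.37 ± 0.08 (adjusted p = 0.00473). *HY5*, a bZIP factor that promotes light development, was called in all 3 comparisons, with log2 fold changes of 0.76 ± 0.19 for WT 29 °C, 0.87 ± 0.19 for OE *APOLO-1* and 0.89 ± 0.19 for *vim1-3* (adjusted p = 0.0078, 0.0064 and 0.00803). Its levels were 242 to 301, 259.6 to 306 and 285 to 298 normalized counts in these groups, against 207, 109 and 158 in WT 23 °C, with the lowest value in replicate B, and the calls held in 1, 3 and 1 of the 12 fits with a library left out.

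**Figure D5:**
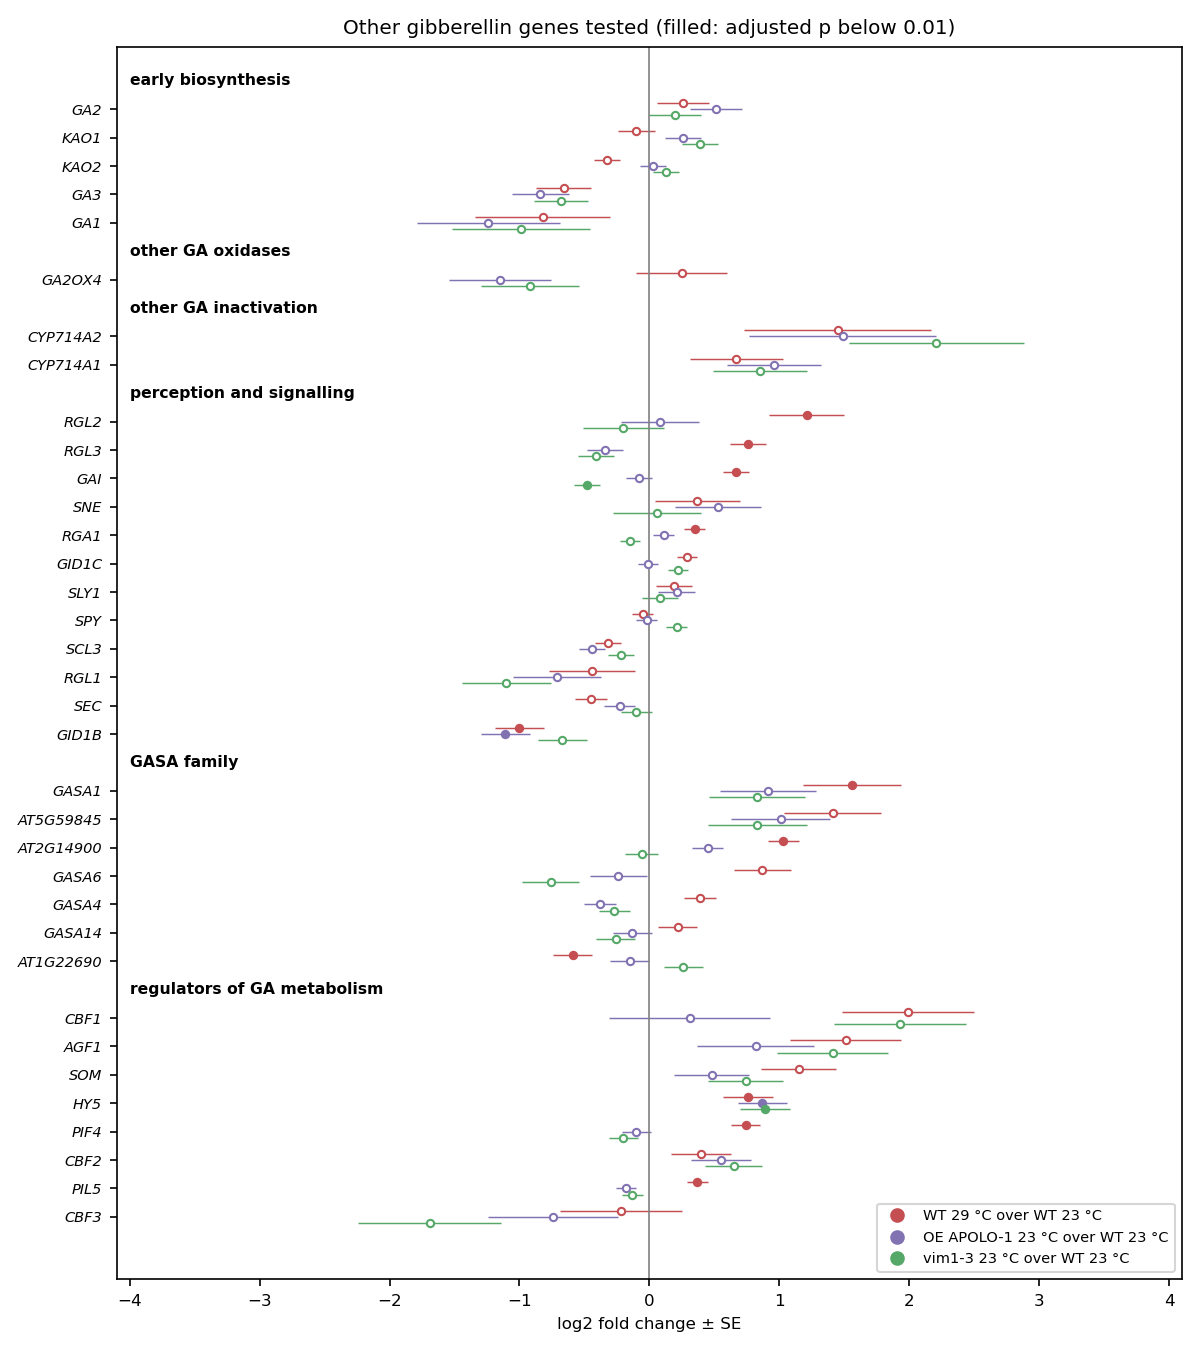
Log2 fold changes with standard errors (x axis) over WT 23 °C of the 35 tested gibberellin genes other than the members (y axis, grouped by role), for WT 29 °C, then OE *APOLO-1*, then *vim1-3*, with filled points at an adjusted p below 0.01. The filled points number 11 for WT 29 °C and 2 each for OE *APOLO-1* and *vim1-3*.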

How the data were processed

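Counts of reads over the exons of each gene, 1 file per library for 12 libraries in 4 groups, were used as the authors deposited them. For these, the authors used Trimmomatic 0.36 for trimming, SortMeRNA against ribosomal RNA and STAR 2.5.2b for alignment to TAIR10, and counted with featureCounts (Subread 1.6.5) on Araport11 genes. The strand setting of the counting is not given in the sources used here. Groups and letters came from the sample labels, age and hours of warmth from the study's methods. The labels speak of growth at 29 °C without hours.

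A set of 20664 genes passed filterByExpr in edgeR 4.0.16 (R 4.3.3, limma 3.58.1) and was fitted in one model of all 12 libraries (TMM, glmQLFit with robust priors, glmQLFTest, Benjamini-Hochberg adjustment within each of 6 comparisons, threshold 0.01 as in the study's methods). A standard error is the log2 fold change divided by the square root of F. Normalized counts of a gene per kilobase use its exon length in the RefSeq annotation of TAIR10.1, which matched 37051 of 37336 identifiers. No 75-base stretch of a member's exons occurred elsewhere in the genome, and no annotated gene overlapped a member. The 10 members were named by identifier. Other gibberellin genes could be named if past the threshold in a comparison with WT 23 °C, and the 3 genes most like *GA20ox1*, *GA3ox1* and *GID1A* by root mean square difference of standardized log2 CPM (prior count 2). *GA2OX4*, *KAO2*, *RGL1*, *GID1C*, *GASA4*, *GASA5*, *GASA6* and the root, shoot, seed and jasmonate markers were named beside these after their values were seen. The members and lists were chosen with earlier results of these data known. Sums by role are given with no p-value.

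The alternatives were DESeq2 1.42.0, RLE and upper-quartile factors, no filter on low counts, a minimum of 10 counts per library, a threshold of 0.05, the replicate letter as a block, only the 6 libraries compared and each library left out in turn. The procedure was tested on simulated data. Python 3.11.15 and matplotlib 3.10.9 were used for figures.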

Additional observations from a re-analysis of the deposited data

How the results depend on the processing

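The depth limits the members counted at under about 20 reads, and the WT 23 °C group was the least uniform. Of the members' single values, 1008 kept their side of the threshold (no direction counted where neither value was called), 15 gained a call, 26 lost one and 0 reversed. Most of the 1008 were not called in either fit, and a loss could fall only on a result called with all libraries. The *GA2ox6* call held in 1 of 12 fits with a library left out in WT 29 °C and in 7 of 12 in OE *APOLO-1*. Members called in WT 29 °C over WT 23 °C numbered 2, against 4 at a threshold of 0.05, where 7229 of all 20664 genes were called. They numbered 1 with at least 10 counts in every library (where *GA20ox1* had no value) and 0 with only the 6 libraries compared. With a library left out they numbered 1 to 5, the 5 being without WT 23 °C replicate A. In OE *APOLO-1* over WT 23 °C the count of 1 became 0 with only the 6 libraries and 0 to 2 with a library left out. In *vim1-3* over WT 23 °C the count of 0 became 1 at a threshold of 0.05 (4127 of all 20664 genes) and 1 by DESeq2 (2895 of all 26476 genes). It was 0 to 2 with a library left out. Over OE *APOLO-1* and *vim1-3* it was 0, and 1 with the 6 libraries and 0 to 1 with a library left out. In WT 29 °C over OE *APOLO-1* the 1 became 0 with at least 10 counts and 0 to 1 with a library left out, and in WT 29 °C over *vim1-3* 0 with at least 10 counts, 2 with the 6 libraries and 1 to 2 with a library left out. The cause of these differences was not tested.

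With the replicate letter as a block (replicate block), 1 member was called in WT 29 °C over WT 23 °C (*GA20ox1*, adjusted p = 0.0028) and 0 in OE *APOLO-1*, since *GA2ox6* had adjusted p-values of 0.0176 and 0.0112 in edgeR's quasi-likelihood test. Nothing in the labels pairs libraries by letter. Same-letter libraries of different groups had correlations of their deviations of -0.222 to 0.187 (2 of 18 over 0.1), and 1 of 12 libraries correlated best with its own letter. Upper-quartile scaling moved the share of higher calls among all genes in WT 29 °C over WT 23 °C to 51.2%, against 38.2%, and the median of all genes to 0.09, against -0.01. Over all genes that comparison had 4264 calls, against 7135 without WT 23 °C replicate A, 2795 to 2816 without 1 WT 29 °C library and 1009 with the 6 libraries. In OE *APOLO-1* over WT 23 °C there were 2126 calls over all genes, against 6133 without WT 23 °C replicate A, 1063 without its replicate C, 650 to 846 without 1 OE *APOLO-1* library, 3415 by DESeq2 and 2 with the 6 libraries. In *vim1-3* over WT 23 °C there were 1371, against 5616 without WT 23 °C replicate A, 764 and 486 without its replicates B or C, 769 to 897 without WT 29 °C replicate A or C or 1 OE *APOLO-1* library, 118, 166 and 93 without *vim1-3* replicate A, B or C, 2895 by DESeq2, 704 with the replicate block and 1 with the 6 libraries. In the comparisons without WT 23 °C the fit of 6 libraries gave more calls, 2146 against 387 in OE *APOLO-1* over *vim1-3*, 3426 against 1689 in WT 29 °C over OE *APOLO-1* and 6046 against 2816 in WT 29 °C over *vim1-3*. Leaving out 1 library of either group gave 122 to 179, 814 to 1098 and 1495 to 1682 calls in that order, and leaving out WT 23 °C replicate A gave 1629, 3648 and 5119.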
